A study of Ovis aries with 41 samples.

Results

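Skin of the tail tip was compared with skin of the middle of the tail in 4 adult rams that carry the HOXB13 genotype A/A, the ancestral form of the locus, and had short tails. The comparison used every library labelled A/A and either tail tip or mid-tail, which came to 16 of the 41 libraries of the series, 8 from the tip and 8 from the mid-tail. Each of these rams gave 2 libraries per position, their counts were summed so that a ram counted once, and the 8 ram sums were compared within rams. The 7 rams of the series, 4 A/A and 3 with the derived genotype D/D and long tails, belonged to the Improved Jezersko-Solčava breed. The methods of the study name 3 A/A rams for RNA-seq, while the labels and the supplement list 4, and all 4 were used. Skin was taken after slaughter at 3 points along the tail, of which the base serves here as a reference and in the estimate of the spread. No animal received a treatment, and both HOXB13 alleles are natural variants of the breed. The samples were small punches of whole adult skin, so each value is a mixture of epidermis, wool follicles, glands, dermis, vessels and immune cells. Adult skin cannot show what the embryonic tail expressed, and the sources do not say whether the 2 libraries of a position came from separate biopsies.

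HOX genes encode homeodomain transcription factors that lie in clusters, and their order in a cluster follows the region of the body axis in which they are used. Members of paralog group 13 act at the hind end, and HOXB13 is known as a brake on the growth of the tail. Skin cells of adults keep part of this positional code, mainly in fibroblasts, and neighbouring regions of skin can differ in hair type and glands.

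At the tail tip no gene passed the main test against the mid-tail. The genes nearest to the threshold were SCUBE3, CORIN and AMELX, with higher values at the tip in 4 of 4 rams, and SP9, with lower values in 4 of 4 rams. HOXB13 was also higher at the tip in each of the 4 rams, but in 1 of them by very little and only after normalization. The quasi-likelihood test of edgeR, fitted with ram as a block, called 0 of 19029 genes tested (0%) at an adjusted p under 0.05, and the smallest adjusted p was 0.0882. Before adjustment, 770 genes (4.05%) had a p under 0.05, where 951 would be the nominal number, with 335 higher (1.76%) and 435 lower (2.29%) at the tip. DESeq2 on the same sums called 27 genes (0.142%), 8 higher and 19 lower, whereas limma-voom called 0, with 800 genes at an unadjusted p under 0.05. When edgeR was fitted on the 8 sums of A/A tip and mid-tail alone, it called 4 of 17843 genes tested, 3 higher and 1 lower. Among them were CORIN, AMELX and K38 (edgeR adjusted p 0.0247, 0.0359 and 0.0422). In the same edgeR fit, the tip against the base gave 308 called genes (1.62%), 158 higher (0.83%) and 150 lower (0.788%), and the mid-tail against the base 5 (0.0263%). These 3 comparisons share samples.

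The 16 libraries held 9177395 to 23431409 counts, and the ram sums 21479841 to 37645752. Of the 6 genes set as a check of skin, 5 were found in the table (KRT1, KRT5, KRT14, COL1A1 and COL3A1; not KRT10), and they ranged from 292 to 17240 CPM (counts scaled to a common library size, after TMM normalization) over the 8 sums. Some libraries stood apart. The 4 libraries of ram 835507 had a median correlation of 0.918 to 0.934 with the libraries of the other rams, and library 2 of the mid-tail of ram 871784 had 0.923, against 0.948 to 0.974 for the other 11. The latter library also differed most from its partner (r = 0.934, against 0.964 to 0.992 in the other pairs). Without it, edgeR still called 0 genes, but 1635 had an unadjusted p under 0.05 (825 higher, 810 lower), and DESeq2 called 66. Without ram 835507 edgeR called 0 genes (856 at an unadjusted p under 0.05) and DESeq2 32, and without all of ram 871784 edgeR called 0 (2071 at an unadjusted p under 0.05) and DESeq2 65. With both ram 835507 and that library left out, edgeR called 0 (2385 at an unadjusted p under 0.05) and DESeq2 121.

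HOXB13 (chromosome 11, 37525009 to 37530787, ARS-UI_Ramb_v3.0) had mid-tail values of 0.769, 2.12, 0.417 and 3.94 CPM in rams 835507, 871772, 871784 and 871932, an order kept for all values that follow. At the tip these rams had 6.53, 5.32, 3.45 and 4.15 CPM. The tip value was therefore far above the mid-tail value in 3 rams and almost equal to it in ram 871932, and the groups overlapped. In ram 871932 the small excess at the tip came from the TMM factors (1.026 at the mid-tail, 0.916 at the tip). Scaled by library totals alone, its tip value lay under its mid-tail value, so the 4 of 4 direction rests on this scaling. The mean was 1.81 ± 1.60 CPM at the mid-tail and 4.86 ± 1.35 CPM at the tip (SD, n = 4), with a log2 fold change of 1.73 ± 0.46 (SE) and an edgeR adjusted p of 0.634. In raw counts the tip libraries held 587 and the mid-tail libraries 217, a ratio of 2.58 after normalization (95% exact binomial interval 2.21 to 3.03, counting error only). The 2 libraries of ram 835507 held 5 and 14 counts at the mid-tail against 138 and 60 at the tip, whereas those of ram 871932 held 71 and 57 against 44 and 56. The base libraries of the same rams held 2 counts in all. HOXB13 passed the edgeR test at the tip against the base (adjusted p 0.000492) and at the mid-tail against the base (adjusted p 0.0198). The mid-tail therefore varied most between rams, with ram 871932 close to its tip value and rams 835507 and 871784 below 1 CPM. Without ram 871932 the log2 fold change of tip over mid-tail was 2.35, and without ram 835507 it was 1.29. Without library 2 of the mid-tail of ram 871784 it was 1.59 (edgeR adjusted p 0.371).

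**Figure D1:**
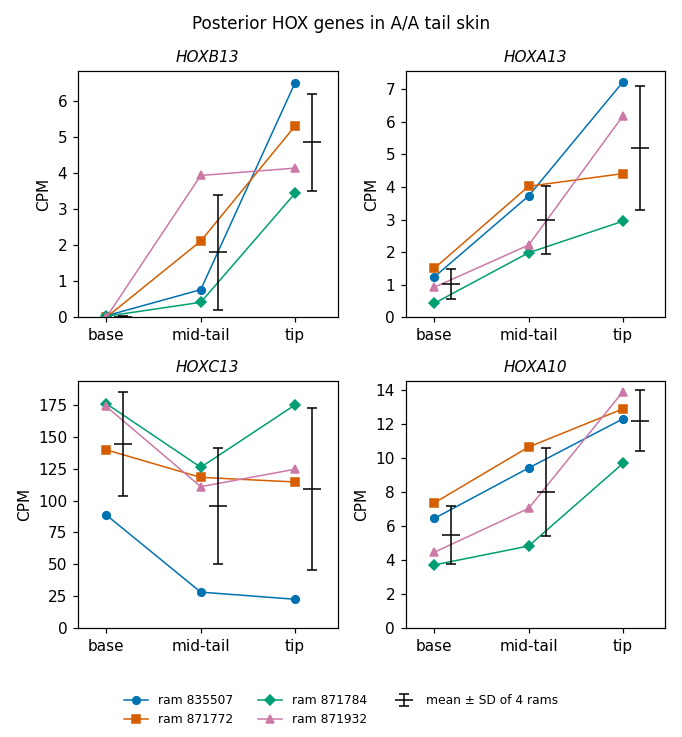
CPM (y axis) of 4 posterior HOX genes at the base, mid-tail and tip (x axis) of the A/A rams, 1 line per ram, with the mean and SD of 4 rams in black. HOXB13 was near 0 at the base of each ram and between 3.45 and 6.53 CPM at the tip, but spread from 0.417 to 3.94 CPM at the mid-tail, and HOXC13 showed no common direction from mid-tail to tip.

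The other members of paralog group 13 gave smaller differences. HOXA13 (chromosome 4, 70422486 to 70435575) had mid-tail values of 3.72, 4.02, 1.98 and 2.22 CPM in rams 835507, 871772, 871784 and 871932, and tip values of 7.22, 4.41, 2.95 and 6.18 CPM. It was higher at the tip in 4 of 4 rams, with a log2 fold change of 0.80 ± 0.31 (SE) and an edgeR adjusted p of 1.00. HOXC13, which is known for its part in hair keratin expression, lay at 28.2 to 126 CPM at the mid-tail and 22.6 to 175 CPM at the tip and was higher at the tip in 2 of 4 rams, with a log2 fold change of 0.11 ± 0.23 (SE) that turned to -0.05 without ram 871784. HOXD13 had 7 counts over the tip libraries and 8 over the mid-tail libraries and was too low to be tested. None of the 3 members tested was called.

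HOX genes of groups 10 to 12, which lie next to group 13 in the clusters, had fitted log2 fold changes above 0 in 7 of 7 members tested, with a median of 0.27, where 53.9% of all genes tested lay above 0 with a median of 0.02. None was called, and 1 had an unadjusted p under 0.05. This was HOXA10, with 9.43, 10.7, 4.84 and 7.05 CPM at the mid-tail and 12.3, 12.9, 9.71 and 13.9 CPM at the tip. HOXA10 was higher at the tip in each ram (log2 fold change 0.67 ± 0.18 SE, edgeR adjusted p 0.635). HOXC11 and HOXA11 had log2 fold changes of 0.54 and 0.59 and were higher in 3 of 4 rams each. Without library 2 of the mid-tail of ram 871784 the count was 6 of 7, and without that ram 5 of 7. Of the 24 members of groups 1 to 9 tested, 15 were above 0 and 9 below, with 2 at an unadjusted p under 0.05, both lower at the tip. These were HOXC5 (mid-tail 15.5, 9.50, 12.8 and 16.8 CPM, tip 9.49, 7.04, 9.07 and 10.2 CPM) and HOXC6 (mid-tail 28.0, 15.7, 19.1 and 16.5 CPM, tip 17.9, 10.2, 13.6 and 13.9 CPM), with log2 fold changes of -0.59 ± 0.17 and -0.51 ± 0.17 (SE). Both were lower in 4 of 4 rams, whereas HOXB9 was higher in 4 of 4 rams (log2 fold change 0.52 ± 0.25 SE). The edgeR adjusted p of these 3 genes was 0.789, 0.969 and 1.00.

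Among transcription factors known from limb buds and other appendages, the zinc finger genes SP8 and SP9 are both used in the ridge of ectoderm at the limb tip. SP9 (chromosome 2, 135679696 to 135683249) had 4.86, 2.23, 0.835 and 0.678 CPM at the mid-tail and 1.35, 0.277, 0.213 and 0.249 CPM at the tip. The tip was lower in each ram, by a log2 fold change of -2.04 ± 0.34 (SE, edgeR adjusted p 0.0882), while the level itself differed between rams, with ram 835507 highest at both positions. The tip libraries held 63 counts of SP9 and the mid-tail libraries 227. The mean of SP9 at the base was 1.29 CPM, with base values under the mid-tail in rams 835507 and 871772 and above it in rams 871784 and 871932, and it was called lower at the tip than at the base (edgeR adjusted p 0.0318). LOC121818547, an uncharacterised gene that lies 5396 bases from SP9 and was picked after its values were seen, had 0.729, 0.804, 0.348 and 0.431 CPM at the mid-tail and 0.132, 0.166, 0.107 and 0.0415 CPM at the tip. The values of both positions did not overlap for this neighbour (log2 fold change -2.35 ± 0.42 SE, edgeR adjusted p 0.126).

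SP8 differed from SP9 in sign. It was listed at 0 in the mid-tail of rams 835507 and 871784, where 3 counts would be 0.121 and 0.104 CPM, at 0.402 CPM in ram 871772 and at 0.0308 CPM in ram 871932. At the tip it had 0.560, 0.222, 0.285 and 1.08 CPM, which was higher than the mid-tail in 3 of 4 rams. The 12 mid-tail counts came mostly from 1 library of ram 871772, which held 10 of them, and the ratio of tip to mid-tail counts was 4.69 (95% exact binomial interval 2.50 to 9.60, counting error only; fitted log2 fold change 2.40 ± 0.95 SE, edgeR adjusted p 1.00). HAND2, a helix-loop-helix factor of limb buds, had 2.96, 2.12, 0.974 and 0.924 CPM at the mid-tail against 1.35, 0.277, 0.142 and 0.373 CPM at the tip. It was lower in each ram (log2 fold change -1.82 ± 0.42 SE, edgeR adjusted p 0.385). Over the whole list of appendage factors, 17 of 41 members tested lay above 0 and 24 below, none was called, and 6 were lower and 2 higher at an unadjusted p under 0.05.

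The 3 genes nearest to the threshold on the higher side were SCUBE3, CORIN and AMELX. SCUBE3, a secreted protein of the dermal papilla that acts in growth factor signalling, had 6.52, 19.1, 22.7 and 22.9 CPM at the mid-tail and 15.3, 47.1, 47.1 and 48.9 CPM at the tip. The tip was about the same fold above the mid-tail in each ram, although ram 835507 was low at both positions (log2 fold change 1.17 ± 0.19 SE, edgeR adjusted p 0.0882). CORIN, a membrane protease used as a dermal papilla marker, had 1.42, 2.08, 0.626 and 1.51 CPM at the mid-tail and 8.70, 9.51, 2.92 and 9.25 CPM at the tip. For CORIN the lowest tip value lay above the highest mid-tail value (log2 fold change 2.40 ± 0.39 SE, edgeR adjusted p 0.0882). AMELX, which encodes the enamel protein amelogenin, had 0.0405, 1.28, 1.39 and 4.22 CPM at the mid-tail and 0.264, 5.60, 18.5 and 26.9 CPM at the tip. The rams differed widely in level, with ram 835507 near 0, yet each was higher at the tip (log2 fold change 2.78 ± 0.46 SE, edgeR adjusted p 0.0882). All 3 were called higher at the tip than at the base (edgeR adjusted p 0.00132, 0.00181 and 0.00400), and none at the mid-tail against the base.

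**Figure D2:**
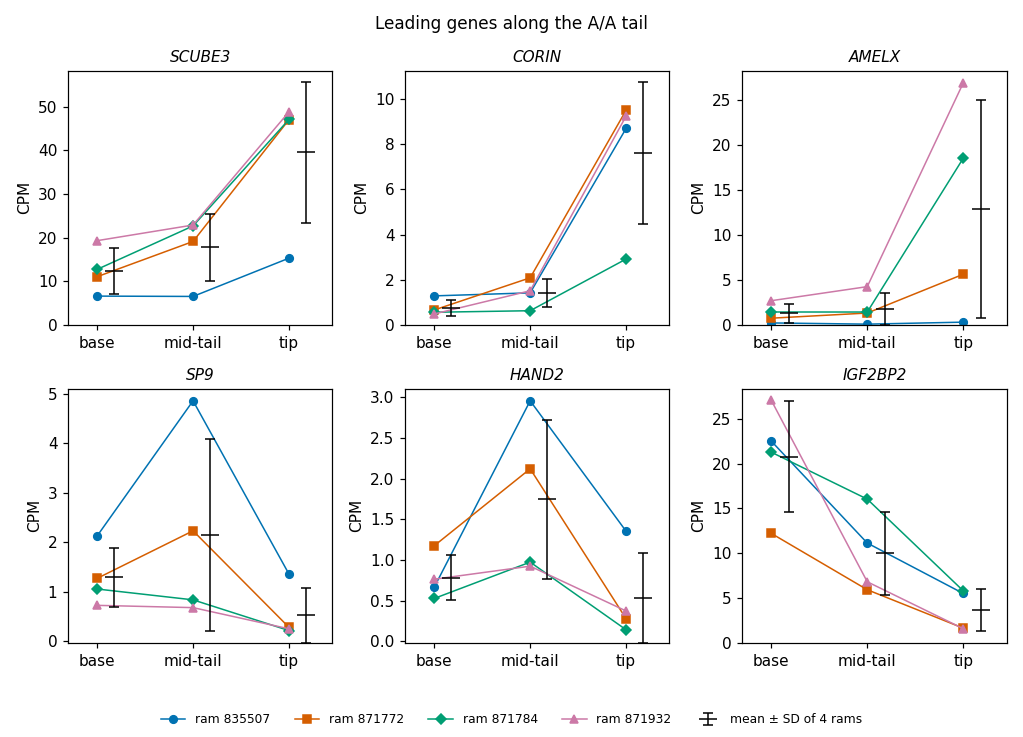
CPM (y axis) of 6 genes at the base, mid-tail and tip (x axis) of the A/A rams, 1 line per ram, with the mean and SD of 4 rams in black. SCUBE3, CORIN and AMELX are higher and SP9 and HAND2 lower at the tip than at the mid-tail in each ram, and IGF2BP2 is lower at each step from base to tip in each ram.

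IGF2BP2, an RNA-binding protein that takes its name from binding the IGF2 transcript, had the next smallest p on the lower side after SP9 among the genes taken by the naming rule, which asks for a symbol and a mean of at least 1 CPM. It had 11.1, 5.92, 16.0 and 6.81 CPM at the mid-tail and 5.51, 1.64, 5.80 and 1.58 CPM at the tip, without overlap (log2 fold change -1.53 ± 0.29 SE, edgeR adjusted p 0.221). Its base values were 12.2 to 27.1 CPM. CLIC6, a member of the chloride intracellular channel family picked after its values were seen, held 39 counts over the mid-tail libraries and 1 count over the tip libraries. The ratio of mid-tail to tip was 40.9 (95% exact binomial interval 6.91 to 1654, counting error only; edgeR adjusted p 0.110), and the tip was listed at 0 in 3 of 4 rams, where 3 counts would be 0.0832 to 0.107 CPM. The base libraries held 185 counts of CLIC6.

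By the naming rule, the 12 smallest p-values in each direction were taken among genes that had a symbol, averaged at least 1 CPM and went 1 way in 4 of 4 rams, so their directions are no result of their own. None of the 24 passed the test. Of all genes tested, 917 (4.82%) were higher in 4 of 4 rams and 808 (4.25%) lower. The higher genes not yet described had log2 fold changes of 0.40 to 2.41. They were GPNMB (a glycoprotein of pigment cells and macrophages), ANGPTL7 (a secreted angiopoietin-like protein), HHLA2 (a B7 family member), GDF10 (a ligand of the TGF-beta family), TNFRSF19 (a receptor of hair follicle buds), CHP2 (a calcineurin B-like protein) and DSG3 (a desmosomal cadherin of the lower epidermis). GPNMB had 80.7 to 108 CPM at the mid-tail and 103 to 230 CPM at the tip (log2 fold change 0.82 ± 0.16 SE, edgeR adjusted p 0.221). ANGPTL7 had the largest fitted difference of these 7, with 0.202 to 1.05 CPM at the mid-tail and 0.818 to 4.63 CPM at the tip (log2 fold change 2.41 ± 0.52 SE, edgeR adjusted p 0.350).

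The lower genes not yet described were ALDH1A3, TNFRSF18 (a receptor of regulatory T cells), CTSL (a lysosomal protease), CCDC80 (a secreted matrix protein), K38 (a keratin gene), CCL24 and CCL26 (chemokines that attract eosinophils), ZNF385D (a zinc finger protein) and GLIPR2 (a Golgi-associated protein). K38 had 144, 72.8 and 49.8 CPM at the mid-tail of rams 871772, 871784 and 871932 and 40.6, 28.5 and 8.79 CPM at the tip, but in ram 835507 it was at 0.445 and 0.0659 CPM. CCL24 and CCL26 lie 21700 bases apart on chromosome 24 and had the same fitted value (log2 fold change -1.94, edgeR adjusted p 0.385 for each), with tip values under the mid-tail value of the same ram throughout. ZNF385D and GLIPR2 were without overlap, as was IGF2BP2, and had log2 fold changes of -0.99 ± 0.23 and -0.67 ± 0.16 (SE). Among all genes tested 0.268% had tip values that all lay under the mid-tail values, and 0.273% the reverse.

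**Figure D3:**
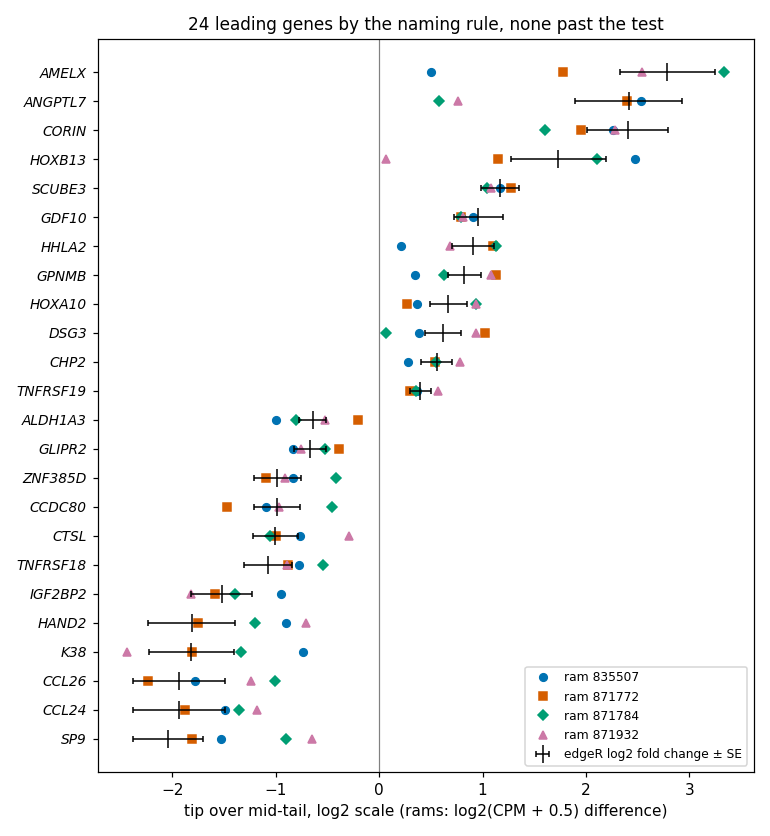
Differences of tip over mid-tail on the log2 scale (x axis) for the 24 leading genes (y axis), coloured points for the difference of log2(CPM + 0.5) in each ram and black bars for the edgeR log2 fold change with its SE. The 4 points of a gene lie on 1 side of 0 because the naming rule asked for it, and for HOXB13 the point of ram 871932 lies almost at 0.

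DESeq2 called CORIN, AMELX, SCUBE3, SP9 and IGF2BP2 with the smallest p-values (adjusted p 7.61e-06, 2.18e-05, 3.57e-05, 0.000514 and 0.000712), with fold changes close to those of edgeR. Of its 27 calls, 18 were also called both by edgeR and by DESeq2 when single libraries were tested with ram as a block, where the 2 libraries of a ram are counted as if they were separate animals. When each A/A ram was left out in turn, DESeq2 called between 11 and 65 genes, and 5 genes were called with all rams and in each of these 4 fits (AMELX, CORIN, IGF2BP2, SCUBE3 and LOC101102057). LOC101102057, an uncharacterised gene picked after its values were seen, had 15.7, 4.35, 2.99 and 2.99 CPM at the mid-tail and 1.12, 0.721, 0.498 and 1.04 CPM at the tip. HOXB13 was not called by DESeq2 on ram sums (adjusted p 0.110), but it was without ram 871932 (log2 fold change 2.40, adjusted p 0.00213).

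The study checked 7 genes by qPCR, among them LOXL4, a lysyl oxidase that crosslinks collagen and elastin. LOXL4 had 3.56, 4.06, 2.47 and 2.99 CPM at the mid-tail and 1.35, 1.53, 1.42 and 1.33 CPM at the tip. The values did not overlap, and the tip values of the 4 rams were close together (log2 fold change -1.23 ± 0.39 SE, edgeR adjusted p 0.896). ALOX15, a lipoxygenase, had 2.67, 0.585, 0.452 and 0.370 CPM at the mid-tail and 0.429, 0.139, 0.249 and 0.332 CPM at the tip, lower in each ram (log2 fold change -1.59 ± 0.62 SE, edgeR adjusted p 1.00). AGT, the angiotensin precursor, was under 0.53 CPM in the 8 sums and lower at the tip in 3 of 4 rams. ACSM2B, an acyl-CoA synthetase, reached 8.34 CPM at the mid-tail and 4.25 CPM at the tip in ram 835507 but was under 0.37 CPM in the other rams at both positions. The study chose these genes on these samples, so their signs are not independent evidence.

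Of the signalling pathways that pattern skin and tail, most lists were split between both directions. In the hedgehog list 8 of 16 members tested were above 0 and 8 below. HHIP, which binds hedgehog ligands, had a log2 fold change of -0.69 ± 0.27 (SE). Wnt ligands and R-spondins split 9 to 10, with WNT3 at 0.47, RSPO4 at 0.95 and WNT8B at -1.45 on the log2 scale. WNT8B is a low gene, at 0.0852 to 0.230 CPM in the D/D sums of both positions. Of Wnt antagonists and targets 13 of 21 were above 0. Among them SFRP4 had 41.8, 46.6, 9.18 and 11.8 CPM at the mid-tail against 7.29, 7.26, 4.66 and 8.71 CPM at the tip, while WIF1 and SFRP2 were higher at the tip in 4 of 4 rams (log2 fold changes 0.51 and 0.70). In the BMP, GDF and TGF-beta list 22 of 41 were above 0. The BMP antagonist CHRDL1 had 114, 41.3, 22.8 and 31.1 CPM at the mid-tail and 49.8, 24.2, 15.9 and 21.6 CPM at the tip. CHRDL1 and the ligand BMP3 were lower at the tip in each ram, and GDF10 was higher in each. In the FGF list 9 of 24 lay above 0, with the decoy receptor FGFRL1 at -0.74 ± 0.26 (SE). Of the retinoic acid list 13 of 16 lay below 0, but 9 of 16 without ram 871772, 9 of 16 without ram 871932 and 8 of 16 with library 2 alone. ALDH1A3, which makes retinoic acid, had 29.8, 33.8, 66.9 and 40.7 CPM at the mid-tail and 14.7, 29.3, 38.2 and 28.2 CPM at the tip (log2 fold change -0.64 ± 0.13 SE, edgeR adjusted p 0.302). No member of these lists was called, and of all genes tested 46.1% lay below 0.

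Lists of genes used by single cell types of skin describe its makeup, but in whole skin fewer cells of a type and less RNA per cell cannot be told apart. The keratinocyte list lay above 0 in 17 of 22 members, with a median log2 fold change of 0.21, and its summed level was higher at the tip in 4 of 4 rams (20020 to 38110 CPM at the mid-tail, 26720 to 50720 CPM at the tip). With library 1 alone 11 of 22 lay above 0 (median 0.07), and without ram 871932 the median was 0.12. DSG3 was at 146, 113, 221 and 140 CPM at the mid-tail and 191, 231, 232 and 268 CPM at the tip, and KRT2, a keratin of the upper epidermis, ranged from 19.8 to 1822 CPM at the mid-tail and from 323 to 6944 CPM at the tip. For sweat gland genes 14 of 20 lay below 0, and the summed level was lower in 4 of 4 rams and without overlap, with 1418, 1606, 1356 and 1487 CPM at the mid-tail against 1173, 1167, 1174 and 1214 CPM at the tip. KRT77 made up part of it (580, 523, 371 and 357 CPM against 428, 207, 251 and 254 CPM, log2 fold change -0.71 ± 0.21 SE, edgeR adjusted p 0.815). KRT8, a keratin of gland epithelium, was also lower in 4 of 4 rams, while FOXI1, a factor of ion-transporting cells, was higher without overlap at under 1 CPM. Of the 20 members, 6 were lower at an unadjusted p under 0.05, or 2 without ram 871772 and 2 without ram 871932.

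The macrophage and dendritic cell list lay below 0 in 15 of 16 members tested, with a median log2 fold change of -0.48, and 7 were lower at an unadjusted p under 0.05. Its summed level was 275, 161, 97.2 and 144 CPM at the mid-tail and 138, 118, 80.0 and 115 CPM at the tip, so each ram was lower at the tip, ram 835507 most of all. C1QC, a complement subunit made by macrophages, had 19.1, 17.1, 4.49 and 11.6 CPM at the mid-tail and 5.37, 8.54, 4.16 and 7.67 CPM at the tip. CD14 and CSF1R, receptors of monocytes and macrophages, were lower in 3 of 4 rams each. Without ram 835507, 14 of 16 lay below 0 and 2 were lower at an unadjusted p under 0.05, and without library 2 of the mid-tail of ram 871784 these numbers were 14 and 8. Lymphocyte genes lay below 0 in 17 of 20 members, or 13 of 19 without ram 835507 and 18 of 20 without ram 871772. Mast cell and granulocyte genes did in 9 of 13, or 8 of 13 without ram 835507 and 13 of 13 without ram 871772. In ram 871772 the lymphocyte median difference of log2(CPM + 0.5) was 0.22. The summed mast cell and granulocyte level of that ram was 49.7 CPM at the mid-tail and 450 CPM at the tip, and it was higher at the tip in 1 of 4 rams. AOC1, which encodes a histamine-degrading oxidase, had 15.0, 4.35, 2.54 and 1.39 CPM at the mid-tail and 1.48, 0.139, 0.249 and 0.747 CPM at the tip (log2 fold change -2.95 ± 0.78 SE, edgeR adjusted p 0.634). LYVE1, used as a marker of lymphatic vessels and some macrophages, was lower in each ram, from 11.2 to 53.7 CPM at the mid-tail to 3.07 to 18.5 CPM at the tip. Chemokines split 9 to 9, but 5 were lower and 1 higher at an unadjusted p under 0.05, with CCL5 (log2 fold change -1.30 ± 0.34 SE) lower in 4 of 4 rams. The part of immune cell number in the values of CCL24, CCL26 and TNFRSF18 was not tested.

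Of the matrix and its enzymes, 25 of 33 matrix enzymes lay below 0 (median log2 fold change -0.30), 21 of 29 fibroblast genes and 17 of 24 dermal collagens. With library 1 alone these numbers were 25, 16 and 11, so that the collagens no longer lay mostly below 0. In ram 871784 the median difference of log2(CPM + 0.5) was 0.51 for the collagens and 0.17 for the fibroblast genes. Each other ram lay below 0 for both. The mid-tail sum of ram 871784 includes library 2, which stood apart, and its part in these medians was not tested. Without that library 27 of 33 matrix enzymes, 22 of 29 fibroblast genes and 19 of 24 dermal collagens lay below 0. ADAMTS15, a protease that cuts proteoglycans, had 4.33, 5.85, 4.10 and 7.24 CPM at the mid-tail and 2.31, 2.44, 3.52 and 2.16 CPM at the tip, without overlap. The gelatinase MMP2 was lower in 3 of 4 rams. Among fibroblast genes the receptor SCARA5 and the microfibril gene MFAP5 were lower in 4 of 4 rams and APOD, which encodes a lipid carrier, was higher in 4 of 4 (log2 fold changes -0.87, -0.70 and 0.52). The collagen gene COL6A6 was lower without overlap (-1.51 ± 0.50 SE). In the list for tendon, cartilage and joint matrix 18 of 28 lay above 0, or 14 of 28 without ram 835507. TNC, a matrix glycoprotein of tendon and healing skin, was higher in 4 of 4 rams (27.3 to 111 CPM at the mid-tail, 77.4 to 144 CPM at the tip), whereas MATN4 (a matrilin) and TNXB (a tenascin of the dermis) had log2 fold changes of -1.12 and -1.01 and were higher at the tip in ram 871784 alone. Adipocyte genes lay below 0 in 17 of 21 members, but the direction differed between rams, with summed levels lower at the tip in rams 835507 and 871772 and higher in rams 871784 and 871932. No member of these lists was called.

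Wool follicle genes set 1 ram against the others. In ram 835507 the summed level was 4287 CPM at the mid-tail and 1470 CPM at the tip. In the other rams it was 25660, 19040 and 22470 CPM at the mid-tail and 26300, 33450 and 29620 CPM at the tip. Of 45 wool follicle genes listed, 27 were found by symbol or synonym. KRT38 was not found, and the keratin gene K38, lower at the tip in each ram, was not counted in this list. The median difference of log2(CPM + 0.5) over the 27 members was -1.64 in ram 835507 and 0.13, 0.85 and 0.42 in the others. Over all rams 21 of 27 members lay above 0, without ram 835507 24 of 27, without library 2 of the mid-tail of ram 871784 18 of 27 and without all of that ram 8 of 27. With all rams kept, library 1 alone gave 9 of 27 above 0 and library 2 alone 24 of 27, so the direction of this list changed with the ram and with the library included. Dermal papilla genes, the list that holds SCUBE3 and CORIN, lay above 0 in 13 of 23 members, with TRPS1 at 0.65 ± 0.18 (SE) and higher in 4 of 4 rams. The median over all 23 members, SCUBE3 and CORIN included, was 0.11, and without ram 835507 11 of 23 lay above 0.

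**Figure D4:**
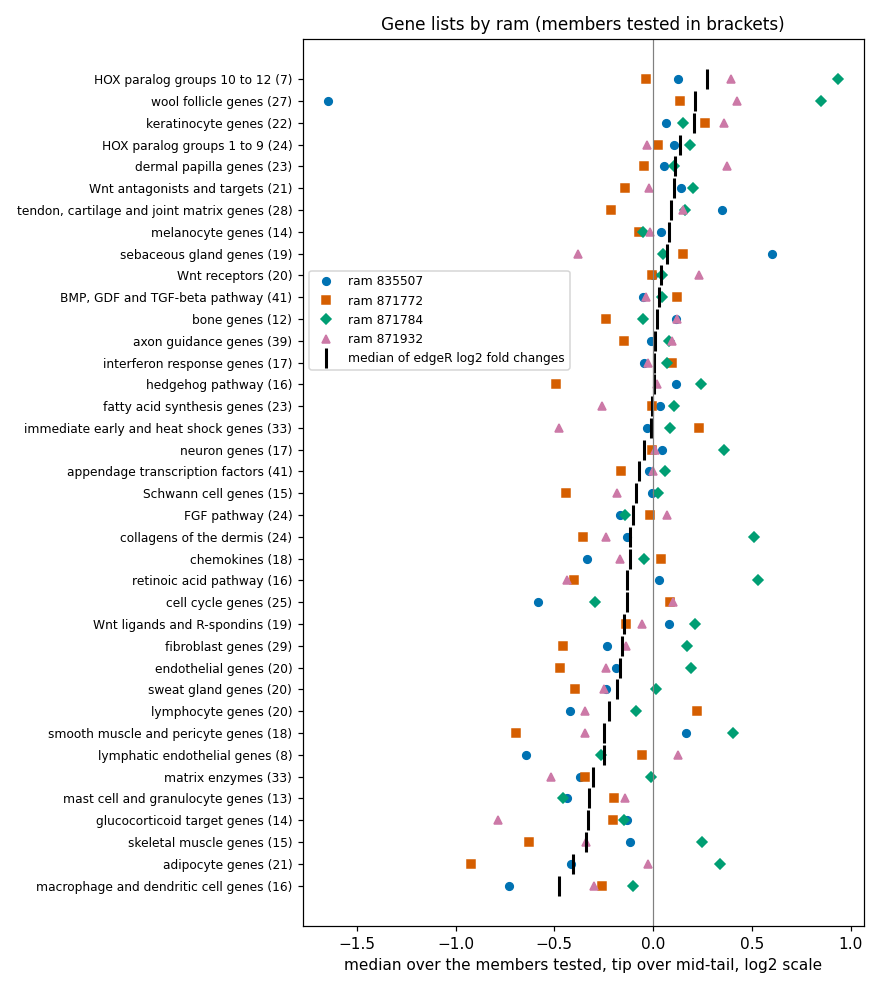
Median over the members tested of each gene list (y axis, number of members in brackets) of the difference of tip over mid-tail on the log2 scale (x axis), coloured points for log2(CPM + 0.5) in each ram and black bars for the edgeR log2 fold changes. Macrophage and dendritic cell genes lie below 0 in each ram, as do glucocorticoid target, matrix enzyme, and mast cell and granulocyte genes. Wool follicle genes have ram 835507 far to the left at -1.64. Adipocyte, skeletal muscle, dermal collagen, fibroblast and endothelial genes each have ram 871784 alone above 0. The mid-tail sum of that ram includes library 2, which stood apart from the other libraries.

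Cell cycle genes lay below 0 in 24 of 25 members, but by little (median log2 fold change -0.13, 1 at an unadjusted p under 0.05), and the medians of rams 871772 and 871932 were above 0. Without ram 835507 it was 16 of 25, and without library 2 of the mid-tail of ram 871784 it was 19 of 25. Glucocorticoid target genes lay below 0 in 14 of 14 members (median -0.33) and in 13 of 14 without ram 835507, with ram 871932 lowest. Without ram 871932 it was 11 of 14. PDK4, which shifts cells from glucose to fat use, was at 79.1, 74.1, 103 and 62.1 CPM at the mid-tail and 55.2, 45.2, 59.2 and 7.38 CPM at the tip. Schwann cell genes lay below 0 in 10 of 15 members, with the myelin gene MBP lower in 4 of 4 rams (log2 fold change -0.62 ± 0.19 SE). Axon guidance genes split 21 to 18, with UNC5C, a netrin receptor, higher in 4 of 4 rams (1.01 ± 0.30 SE). Immediate early and heat shock genes lay above 0 in 15 of 33 members and interferon response genes in 9 of 17, with 0 of either at an unadjusted p under 0.05. Sebaceous gland genes lay above 0 in 13 of 19 members, but in 9 of 19 without ram 835507 and in 9 of 19 without ram 871784. Melanocyte genes lay above 0 in 8 of 14 members (5 of 14 without ram 835507) and Wnt receptors in 12 of 20 (8 of 20 without ram 871932), while neuron genes did in 8 of 17 and bone genes in 6 of 12. Endothelial genes lay below 0 in 14 of 20 members, smooth muscle and pericyte genes in 14 of 18, skeletal muscle genes in 12 of 15 and lymphatic endothelial genes, among them LYVE1, in 7 of 8. The rams differed in direction, however. The summed level was higher at the tip in 1 of 4 rams for endothelial genes and in 2 of 4 for each of the smooth muscle, skeletal muscle and lymphatic lists. The smooth muscle medians by ram were 0.17, -0.69, 0.40 and -0.34. The values of ram 871784 include library 2 of its mid-tail, which stood apart. Without that library 15 of 20 endothelial, 13 of 18 smooth muscle and pericyte, 12 of 15 skeletal muscle and 7 of 8 lymphatic genes lay below 0. No gene of these lists was called by edgeR.

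The 3 D/D rams gave the tip and mid-tail comparison in the long-tail genotype, with 2 libraries per ram and position except for the mid-tail of ram 871869, which had 1. The study reported higher HOXB13 in A/A than in D/D at both positions. It cautioned against such comparisons, because both positions lie further from the base in the longer D/D tails. For this reason it focused on changes against the base. In what follows, genotype and distance from the base cannot be told apart. The D/D tip against the D/D mid-tail also had 0 called genes in edgeR (721 at an unadjusted p under 0.05, 3.79%). The difference of the tip to mid-tail change between A/A and D/D was tested as an interaction. It called 0 genes in edgeR, with 412 at an unadjusted p under 0.05 (2.17%), 0 in limma-voom and 1 in DESeq2 on ram sums. HOXB13 had 0.0576 to 0.152 CPM at the D/D mid-tail and 0.254 to 1.07 CPM at the D/D tip, lower than in A/A at both positions. The D/D mid-tail values rest on a few reads per ram, and ram 871869 had 1 library there, of 17132063 counts. The log2 fold change in D/D, 2.32 ± 0.80 (SE) against 1.73 ± 0.46 in A/A, is therefore poorly fixed. The difference between these changes was -0.59 ± 0.91 (SE, edgeR adjusted p 1.00). CORIN differed more, with 1.98 to 2.48 CPM at the D/D mid-tail and 1.15, 6.70 and 2.36 CPM at the D/D tip, and a difference between genotypes of 2.09 ± 0.60 (SE, edgeR adjusted p 1.00). AMELX gave 2.24 ± 0.65 and SCUBE3 0.69 ± 0.28 (SE) for the same difference, which also did not pass. SP9 and IGF2BP2 had log2 fold changes of -1.88 and -1.82 in D/D, and their differences between genotypes were -0.16 ± 0.58 and 0.29 ± 0.44 (SE). Of the 24 leading genes, 22 had the same sign in D/D, where 52.6% of all genes tested did.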

How the data were processed

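The authors made the libraries with the CorALL kit and checked the reads with FastQC 0.11.9. ContextMap 2, which ran BWA, placed the reads on ARS-UI_Ramb_v3.0, and strand-specific counting per RefSeq gene was done in featureCounts. The deposited table holds whole raw counts of 31182 genes in 41 libraries, with 0 columns left out. The working table of units lists the deposited columns of the tip under estimated counts, because an automatic check took their names for genome positions, but they are whole counts like the others. Members and gene lists were chosen with earlier results of these data known.

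Counts were added over the libraries of each ram and position, which gave 21 ram sums, each of 2 libraries except the mid-tail of D/D ram 871869, which had 1. Low counts were filtered with edgeR 4.0.16 (R 4.3.3), which left 19029 genes, and counts were scaled by TMM and tested with the quasi-likelihood test, with terms for ram and for position within genotype. P-values were adjusted after Benjamini-Hochberg over all genes tested, and a call means an adjusted p under 0.05. A stricter rule asked for an adjusted p of at most 0.01 and a log2 fold change over 1 in size. Ram was the block because the same animals gave both positions, and sums of the same ram deviated together (correlations 0.417 to 0.853). Alternatives were DESeq2 1.42.0, limma-voom (limma 3.58.1), single libraries, other blocks, scalings and filters, fewer samples, single library numbers, and fits without each ram. Scripts were tested on simulated data. With ram as a block, the p-values of the main test rest on how much the change between positions varied from ram to ram, estimated over all 21 sums. Libraries of 1 ram and position differed by more than counting noise.

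Named genes were the 7 that the study checked by qPCR, group 13 HOX genes and up to 3 genes with the smallest p of each list. Also named were the 12 genes with the smallest p in each direction. For these, a symbol, at least 1 CPM on average and 1 direction in 4 rams were required. Other genes that the study discusses were named only where this rule took them. Some genes that this rule names are not reported here. Coordinates are those of the RefSeq table of the same build. Gene lengths in transcripts were not used here, so levels of different genes are in reads and not per length.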

Additional observations from a re-analysis of the deposited data

Results flagged for a closer look

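Among 166 groups of 4 rams, 2 positions for each of the genes named, 13 held a ram whose gap to the next one took up most of the range on the log2(CPM + 0.5) scale, where chance flags about 1 in 20 groups. Ram 835507 was the distant one in 7 of the 13. At the mid-tail it had 28.2 CPM of HOXC13 (others 111 to 126), 6.52 CPM of SCUBE3 (others 19.1 to 22.9) and 2.67 CPM of ALOX15 (others 0.370 to 0.585). At the tip it had 15.3 CPM of SCUBE3 (others 47.1 to 48.9), 4.25 CPM of ACSM2B (others 0 to 0.142), 1.35 CPM of SP9 (others 0.213 to 0.277) and 1.25 CPM of CCL5 (others 0.747 to 0.804). This ram also had the lowest wool follicle level at both positions, and the part of that in these values was not tested.

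Ram 871772 had 0.402 CPM of SP8 at the mid-tail (others 0 to 0.0308) and 2.52 CPM of MATN4 (others 1.29 to 1.38). Ram 871784 had 2.92 CPM of CORIN at the tip (others 8.70 to 9.51). Ram 871932 had 7.38 CPM of PDK4 at the tip (others 45.2 to 59.2), 144 CPM of TNC (others 77.4 to 85.8) and 0.0415 CPM of CLIC6, which was 1 count where the other rams had 0. The difference of the tip to mid-tail change between A/A and D/D put no gene past the threshold in the edgeR test.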

How the results depend on the processing

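The count of called genes stayed at 0 with limma-voom, without the ram block, with RLE factors or library totals, with at least 1 CPM in 3 sums, on the 12 A/A sums, with library 1 or library 2 alone, and with each ram left out. It was 27 in DESeq2 on ram sums, 32 in edgeR and 76 in DESeq2 on single libraries, 4 without a filter on low counts, 4 on the 8 sums of A/A tip and mid-tail alone and 1 with library number as the block. Genes past both stricter thresholds numbered 10, 9 and 26 in the first 3 of these settings and 0 in the other edgeR fits. The log2 fold change of HOXB13 was 1.71 (adjusted p 0.0388) in edgeR and 1.75 (adjusted p 0.00498) in DESeq2 on single libraries, and 1.29 to 2.35 with a ram left out. The interaction called 1 gene in DESeq2 on ram sums and 3 in DESeq2 on single libraries. Without the replicate block edgeR called 0 genes, the log2 fold change of HOXB13 was 1.42, and DESeq2 called 2. The following DESeq2 fits were chosen after seeing the data, as was the one without the block. DESeq2 called 66 genes without library 2 of the mid-tail of ram 871784 and 121 without ram 835507 as well, and 11 to 65 with an A/A ram left out. HOXC13 turned from 0.11 to -0.141 and AGT from -1.40 to 0.288 with library 1 alone, and HOXC13 ranged from -0.0488 to 0.1804 with a ram left out. The cause was not tested. Depth limits SP8, CLIC6, HOXD13 and AGT, and HOXB13 at the D/D mid-tail, which rest on few counts per library.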
